A study of Mus musculus with 24 samples.

Results

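Cathepsins are proteases of the lysosome, and 10 of the 55487 genes in the deposited gene table encode the cathepsins described here, which were taken by symbol as *Ctsa*, *Ctsb*, *Ctsc*, *Ctsd*, *Ctsf*, *Ctsh*, *Ctsk*, *Ctsl*, *Ctso* and *Ctsz*. The RNA came from mouse embryonic fibroblasts (MEFs), fibroblasts grown out of mouse embryos, of a wild-type (WT) line and of a *tfeb tfe3* double knockout (DKO) line, which lacks the transcription factors TFEB and TFE3. Cells of each line received the vehicle DMSO, torin1, which inhibits the kinase MTOR, or MK-8722, which activates the kinase AMPK, giving 6 groups of 4 libraries and 24 libraries in all. The 4 libraries of a group came from cultures at different passages, 7, 8, 9 and 11 for WT and 8, 9, 10 and 11 for DKO. Each genotype was a single cell line, so the loss of both factors and any other difference between the lines cannot be told apart. The sample labels give neither the doses nor the length of treatment, and they do not say whether cultures were set up independently, so p-values measure the spread between these passages.

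As background, cathepsins are made as inactive precursors, carried to the lysosome and activated there at low pH, where they cut proteins delivered by endocytosis and autophagy. CTSD is an aspartic protease, CTSA a serine carboxypeptidase, and the others are papain-like cysteine proteases that act inside a protein chain, at its ends, or both. TFEB and TFE3 are held in the cytosol by MTORC1 and, once released, bind E-box sequences of the CLEAR type upstream of many lysosomal genes.

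In WT MEFs both drugs raised the abundant *Ctsa*, *Ctsb*, *Ctsd* and *Ctsl*, MK-8722 also raised *Ctsz*, and by the test of the difference all of these responses but that of *Ctsl* to torin1 were lower in *tfeb tfe3* DKO MEFs. *Ctsa* changed the most among them, to 2.33-fold of the DMSO level with torin1 and 2.14-fold with MK-8722. Under DMSO *Ctsd*, *Ctsl* and *Ctsz* were already higher in DKO than in WT MEFs, and under neither drug was their level called lower in DKO. The low-level *Ctsf* rose with torin1 in WT MEFs. Its rise in DKO MEFs was called with all libraries but not in 4 of 8 fits that each left out 1 library. *Ctsc* had 0 counts in all DKO libraries. Summed over the 10 genes, expression was 900 ± 49.0 CPM (SD, n = 4) in WT MEFs under DMSO, 1314.5 ± 33.7 under torin1 and 1442 ± 59.8 under MK-8722, where CPM is a gene's count relative to the total of its library, after TMM scaling of the totals. The sums of the WT groups did not overlap, with 862 to 972 CPM under DMSO, 1282 to 1353 under torin1 and 1375.5 to 1508 under MK-8722. In DKO MEFs the sum was 1139.7 ± 27.9 CPM under DMSO, 1154 ± 53.3 under torin1 and 1175 ± 29.4 under MK-8722, and the ranges of these groups overlapped. The sums compare RNA in bulk cultures, in which the number of cells expressing a gene and the RNA per cell cannot be told apart.

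Libraries held 24668870 to 33332507 counts. The targeted gene *Tfeb* fell from 22.9 ± 1.74 CPM in WT to 2.25 ± 0.289 in DKO MEFs under DMSO (n = 4 each, log2 fold change -3.35). *Tfe3* RNA was at 120.2 ± 1.17 and 124 ± 2.11 CPM and does not check the label, since which part of the gene is missing is not in the labels. All 8 fibroblast markers passed the filter on low counts and summed to 5739 to 9801 CPM per library, although *Thy1* had 0 counts in DKO MEFs under DMSO and torin1. Of 9 macrophage markers 2 passed the filter, and the list summed to 7.12 to 11.6 CPM in WT and 6.19 to 9.96 in DKO libraries, most of it *Cd14*, with *Adgre1* and *Tyrobp* at 0 in every library. Of 4 endothelial markers 1 passed, with sums of at most 1.37 CPM in WT and 0.385 in DKO libraries, and of 4 epithelial markers 2 passed, with sums of 0.753 to 2.65 CPM in WT and 0.0343 to 0.395 in DKO libraries. The part of these markers in the results was not tested. Within the WT line the libraries of passage 11 stood farthest from their group means, at a root mean square of 0.404 on the log2 scale over the 15401 genes tested compared to 0.277 to 0.322 for the other passages, and within DKO passage 8 stood at 0.342 compared to 0.315 to 0.328. Where leaving out these libraries changed a call, the value is given with the gene.

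The promoter windows that hold the E-box core CACGTG are shown here because the study concerns factors that bind it. RefSeq windows of 300 bases (250 before and 50 after a transcript start, build GRCm38.p6) were matched for 8 of the 10 genes, with 2 windows for *Ctsa*. Capitals mark CACGTG, a palindrome that reads the same on both strands, within stretches of 30 bases written 5′ to 3′ on the strand of the gene.
*Ctsd*, chr7:142388048-142388077, minus strand: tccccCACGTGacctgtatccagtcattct
*Ctsd*, chr7:142387908-142387937, minus strand: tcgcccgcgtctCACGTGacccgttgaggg
*Ctsa*, chr2:164833757-164833786, plus strand: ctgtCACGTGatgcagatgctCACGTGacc
*Ctsl*, chr13:64370739-64370768, minus strand: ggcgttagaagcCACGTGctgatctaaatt
*Ctsf*, chr19:4855074-4855103, plus strand: caccccgtggtcCACGTGcctcgcgtaaat

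The core lay at positions -245 and -98 from the RefSeq start of *Ctsd*, at -12 and 6 in the second *Ctsa* window, at -236 for *Ctsl* and at -79 for *Ctsf*, counted from its first base. None was found in the windows of *Ctsc*, *Ctsk*, *Ctso* and *Ctsz* or in the first window of *Ctsa*, and a window says nothing of sequence outside it. Over all 32851 RefSeq windows, 7.15% held the core. The longer form CACGTGAC, or its reverse GTCACGTG, was in 2.25% of all windows and at both sites of *Ctsd* and of *Ctsa*, and each of its matches contains the core. The 8-letter palindrome TCACGTGA was in 0.974% of all windows, at both *Ctsa* sites and at the *Ctsd* site nearest the start. By GENCODE annotation the *Ctsd* site at -98 lies in the untranslated part of an exon and the one at -245 outside the gene. The *Ctsa* stretch overlaps the untranslated part of an exon, inside a gene annotated from 164832873 on the plus strand. The *Ctsl* stretch overlaps an untranslated exon of 1 transcript, inside a gene annotated from 64370890 on the minus strand. The *Ctsa* and *Ctsl* stretches thus lie downstream of the annotated gene starts, whatever their distance from the RefSeq start. The *Ctsf* stretch lies before the annotated gene. These matches are letters in a reference genome, and binding was not measured.

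**Figure D1:**
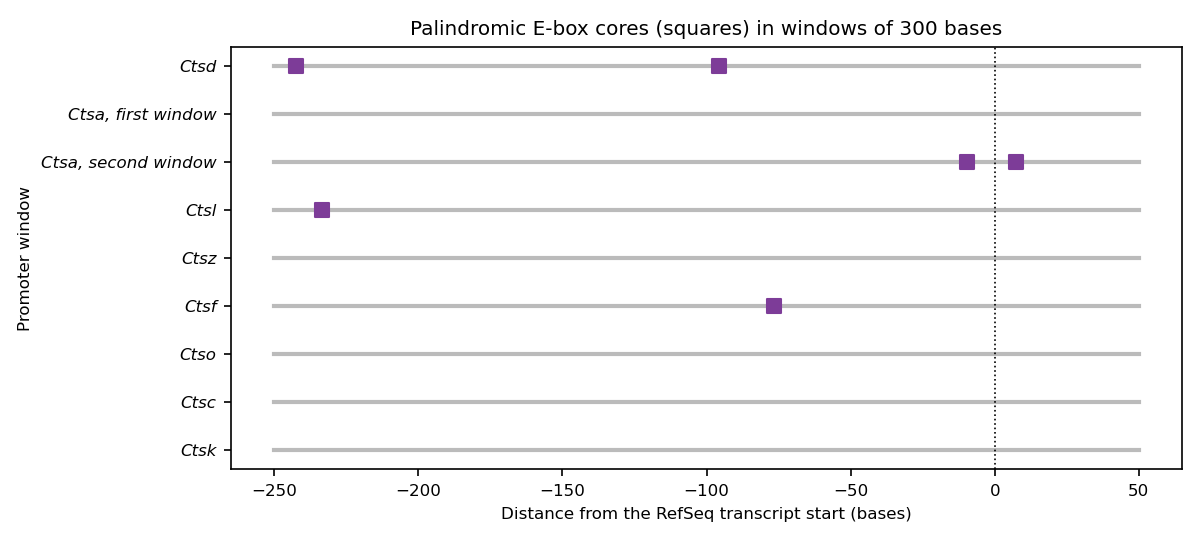
Positions of the palindromic E-box core (squares) in the promoter windows of the cathepsin genes, with distance from the RefSeq transcript start in bases on the x axis and each window as a grey line. The windows of *Ctsd* and the second window of *Ctsa* hold 2 cores each, those of *Ctsl* and *Ctsf* 1 each, and the other windows none. The *Ctsl* window and the second *Ctsa* window lie inside the genes as annotated by GENCODE.

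Compared by TPM, which divides by transcript length and so allows a comparison between genes, the 10 genes differed widely in level. *Ctsl* was highest in every group, at 299 ± 20.1 TPM in WT MEFs under DMSO (279 to 326). *Ctsd* and *Ctsb* followed with 173 ± 12.4 and 166 ± 19.98 TPM, and their libraries overlapped (163 to 190.2 and 149 to 195). *Ctsa* at 123 ± 3.52 TPM and *Ctsz* at 109.6 ± 5.75 came next and met at their edges (117 to 125 and 105 to 118). *Ctsc* stood alone at 18.2 ± 1.80 TPM. *Ctsh*, *Ctso* and *Ctsf* had 3.25 ± 0.827, 2.32 ± 0.643 and 2.19 ± 0.444 TPM with overlapping libraries, and *Ctsk* was last at 0.0435 ± 0.0418. With torin1 in WT MEFs *Ctsa* stood second by mean at 316 ± 29.2 TPM, with libraries between 274 and 338 against 255 to 273 for *Ctsd*. In DKO MEFs the mean of *Ctsa* was below that of *Ctsz* under all 3 treatments, with 128 to 156 TPM.

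**Figure D2:**
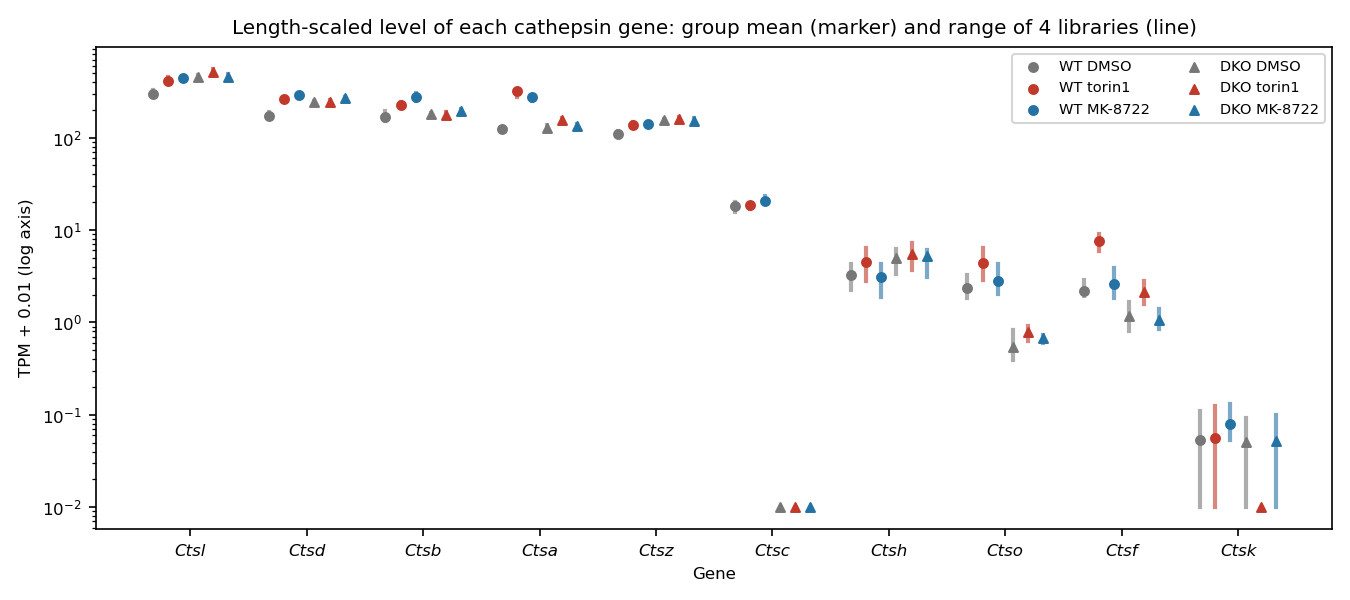
Level of each cathepsin gene in TPM plus 0.01 on a log axis, with the group mean as a marker and the range of the 4 libraries as a line. *Ctsl* is highest in all 6 groups, *Ctsc* is at 0 TPM in the 3 DKO groups, and the *Ctsa* markers of the WT drug groups, at 316 and 278 TPM, stand above those of its other 4 groups.

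Of the 10 genes, 9 passed the filter on low counts and were tested, all but *Ctsk*. A gene is called at an adjusted p below 0.05 (edgeR quasi-likelihood test, Benjamini-Hochberg over 15401 genes) with a fold change of at least 1.2, which is 0.263 on the log2 scale. In WT MEFs torin1 raised 6 of the 9 genes, while 26.6% of all genes tested were called higher. It lowered 0 of them, with 20.5% of all genes called lower, 0 also by DESeq2 and by edgeR 4 and 0 with an unadjusted p below 0.05. MK-8722 raised 5 of the 9 in WT MEFs, while 10.3% of all genes were called higher, and lowered 0, with 5.87% of all genes called lower and again 0 by both other tests and at an unadjusted p below 0.05. Over the 9 genes the median log2 fold change came to 0.38 for torin1 (0.05 over all genes tested) and 0.33 for MK-8722 (-0.02 over all genes tested).

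In DKO MEFs torin1 raised 1 of 8 genes, *Ctsc* having no counts there, while 23% of all genes were called higher. It lowered 0, with 20.2% of all genes called lower, and 3 genes were higher and 0 lower at an unadjusted p below 0.05. MK-8722 raised 0 and lowered 0 of the 8 genes in DKO MEFs by edgeR and by DESeq2, where 5.47% of all genes were called higher and 3.21% lower. At an unadjusted p below 0.05, 1 gene, *Ctsd*, was higher. Its adjusted p in edgeR was 0.0394, and its fold change was under the minimum. Over the 8 genes the median came to 0.14 for torin1 (0.02 over all genes tested) and 0.03 for MK-8722 (0 over all genes tested). The response in DKO minus that in WT was itself tested. For torin1 it was lower for 4 of 8 cathepsin genes and higher for 0, with 6.33% of all genes called lower and 4.68% higher. For MK-8722 it was lower for 5 of 8 and higher for 0, with 4.08% of all genes called lower and 1.42% higher. At an unadjusted p below 0.05, 0 genes had a higher response in DKO for either drug, and DESeq2 and edgeR 4 called 0 as well. Both responses use the same DMSO libraries, so the 2 counts are not independent of each other.

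**Figure D3:**
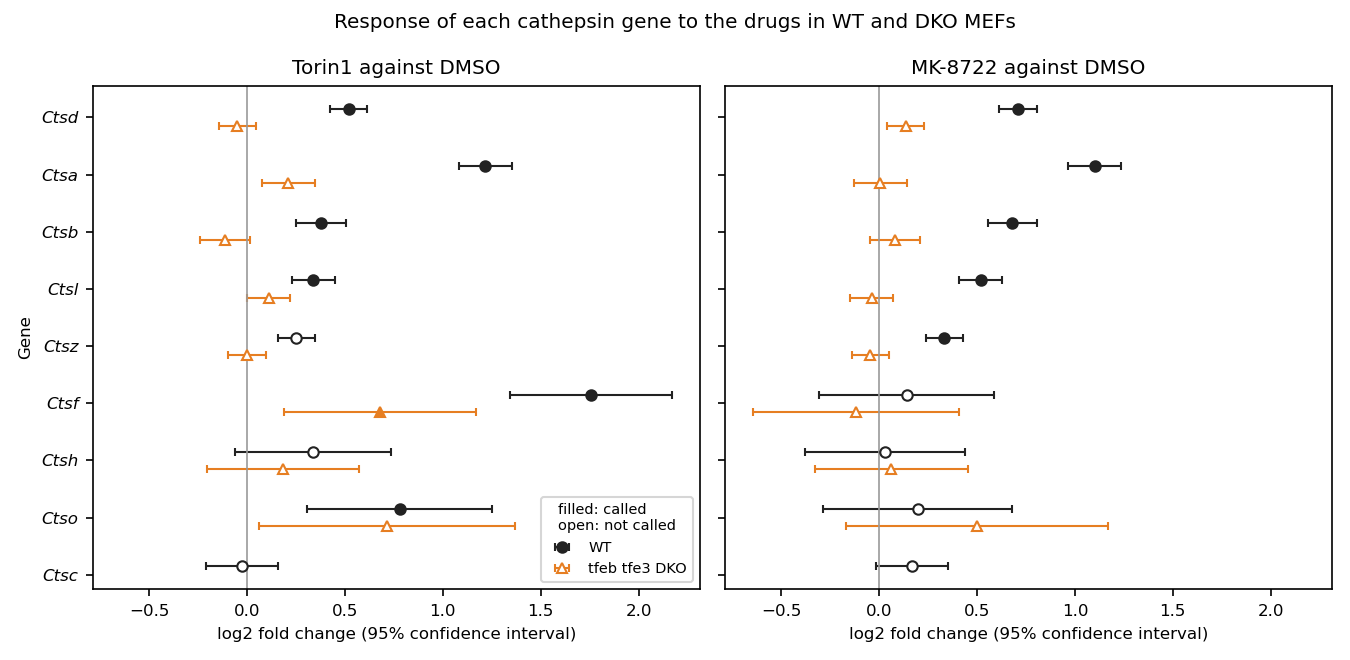
Log2 fold change of each cathepsin gene with torin1 (left) and MK-8722 (right) against DMSO, in WT (circles) and DKO MEFs (triangles), with 95% confidence intervals, where filled symbols are called and open ones are not. In WT MEFs *Ctsd*, *Ctsa*, *Ctsb* and *Ctsl* were called with both drugs, and in DKO MEFs *Ctsf* with torin1 was the single call. *Ctsc* has no DKO value.

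*Ctsd* encodes the aspartic cathepsin, an endopeptidase that also processes prosaposin (chromosome 7, 142375911 to 142388038, minus strand, GRCm38, ENSMUSG00000007891). In WT MEFs its expression was 205, 207, 218 and 239 CPM under DMSO, 300.2, 309, 317 and 318 under torin1 and 332, 349, 369 and 370.0 under MK-8722. In DKO MEFs it was 305, 305, 315 and 319 CPM under DMSO, 280.4, 299, 304 and 318 under torin1 and 333, 338, 341 and 353 under MK-8722. The 3 WT groups did not overlap, and the DKO libraries under DMSO overlapped the WT libraries under torin1. In WT MEFs *Ctsd* rose by 0.52 ± 0.046 (SE) on the log2 scale with torin1 (adjusted p = 1.68e-09) and by 0.71 ± 0.046 with MK-8722 (adjusted p = 6.22e-11). In DKO MEFs the change was -0.05 ± 0.046 with torin1 (adjusted p = 0.375) and 0.14 ± 0.046 with MK-8722 (adjusted p = 0.0394, below the fold minimum). Tested against each other, the response of DKO minus that of WT MEFs was -0.57 ± 0.065 with torin1 (adjusted p = 1.65e-06) and -0.57 ± 0.065 with MK-8722 (adjusted p = 1.79e-06). Under DMSO *Ctsd* was higher in DKO than in WT MEFs by 0.52 ± 0.046 (adjusted p = 1.36e-09), so that the lines differed by -0.05 and -0.06 under torin1 and MK-8722, neither called. Reads of *Ctsd* may be shared with *Gm49369*, a gene model on the same strand with overlapping exons, which held between 10.4% and 11.8% of the *Ctsd* count in the 6 groups.

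*Ctsa* encodes a serine carboxypeptidase that also protects neuraminidase NEU1 and beta-galactosidase GLB1 in a lysosomal complex (chromosome 2, 164832873 to 164841032, plus strand, ENSMUSG00000017760). In WT MEFs it was at 126, 129.7, 130.4 and 136 CPM under DMSO, 261, 312, 315 and 327 under torin1 and 255, 286, 288 and 292 under MK-8722. All 8 WT drug libraries were above every other library of the series, and the libraries of the 2 drugs overlapped each other. In DKO MEFs it was at 126, 127, 139 and 142 CPM under DMSO, 144, 151, 159 and 165 under torin1 and 122, 132, 139 and 143 under MK-8722. In WT MEFs *Ctsa* rose by 1.22 ± 0.066 with torin1 (adjusted p = 5.36e-13) and by 1.10 ± 0.066 with MK-8722 (adjusted p = 1.39e-11). In DKO MEFs the difference was 0.21 ± 0.065 with torin1, with libraries above those of DMSO but a fold change of 1.16 (adjusted p = 0.00828, not called), and 0.01 ± 0.065 with MK-8722 (95% confidence interval -0.13 to 0.14). Torin1 responses differed by -1.01 ± 0.092 between DKO and WT (adjusted p = 6.53e-08), and those to MK-8722 by -1.10 ± 0.092 (adjusted p = 2.06e-08). Under DMSO the lines differed by 0.03, with a 95% confidence interval from -0.10 to 0.17. Exons of *Neurl2* and *Pltp* overlap *Ctsa* on the opposite strand, and their counts were 0.979% to 1.93% and 8.80% to 16.02% of the *Ctsa* count across the groups.

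*Ctsb* encodes a cysteine cathepsin that cuts inside proteins and also removes dipeptides from their ends (chromosome 14, 63122462 to 63145923, plus strand, ENSMUSG00000021939). The WT libraries gave 225, 228, 243 and 278 CPM under DMSO, 307, 309.6, 313 and 335 under torin1 and 357, 371, 401 and 433 under MK-8722. The DKO libraries gave 262, 267, 269 and 278 CPM under DMSO, 233, 239.5, 261 and 261 under torin1 and 276, 280.0, 285 and 296 under MK-8722. The WT groups stood in steps without overlap, DMSO below torin1 below MK-8722, while in DKO MEFs the torin1 libraries were the lowest. *Ctsb* rose in WT MEFs by 0.38 ± 0.061 with torin1 (adjusted p = 1.21e-05) and by 0.68 ± 0.061 with MK-8722 (adjusted p = 1.2e-08). Its DKO differences were -0.11 ± 0.061 (adjusted p = 0.118) and 0.08 ± 0.061 (adjusted p = 0.403), neither called. Relative to WT, the response of DKO MEFs differed by -0.49 ± 0.086 under torin1 (adjusted p = 0.000358) and by -0.60 ± 0.086 under MK-8722 (adjusted p = 4.68e-05). Exons of *Fdft1*, an enzyme gene of sterol synthesis, overlap *Ctsb* on the opposite strand, and its count came to between 13.7% and 23.4% of the *Ctsb* count in the 6 groups. The mean *Fdft1* count was 1523 under DMSO, 1318 under torin1 and 2179 under MK-8722 in WT MEFs, and 1068, 1451 and 1802 in DKO MEFs, so it was highest under MK-8722 in both lines. The part of these reads in the *Ctsb* values was not tested.

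*Ctsl* encodes a strong cysteine endopeptidase (chromosome 13, 64359337 to 64370890, minus strand, ENSMUSG00000021477). Among WT MEFs the values were 176, 184, 185 and 200.1 CPM under DMSO, 216, 223, 240.1 and 261 under torin1 and 259, 261, 264 and 282 under MK-8722. Among DKO MEFs the values were 277, 279, 280.1 and 299.7 CPM under DMSO, 295, 297, 299 and 333 under torin1 and 269.8, 273, 274 and 289.7 under MK-8722. The drug libraries of WT MEFs lay above all WT DMSO libraries, and the DKO libraries under DMSO lay above every WT library under DMSO and torin1. In WT MEFs *Ctsl* rose by 0.34 ± 0.053 with torin1 (adjusted p = 8.59e-06) and by 0.52 ± 0.053 with MK-8722 (adjusted p = 1.06e-07). Without the torin1 library of replicate 3 the torin1 rise was 0.26, under the fold minimum. In DKO MEFs the differences were 0.11 ± 0.053 with torin1 (adjusted p = 0.0857) and -0.04 ± 0.053 with MK-8722 (adjusted p = 0.684). The MK-8722 response was lower in DKO by 0.56 ± 0.075 (adjusted p = 2.31e-05), whereas the torin1 response differed by -0.23 ± 0.075 (adjusted p = 0.0416) and was under the fold minimum.

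*Ctsz* encodes a cysteine carboxypeptidase (chromosome 2, 174427493 to 174439039, minus strand, ENSMUSG00000016256). In WT MEFs it was at 91.6, 92.9, 93.3 and 103 CPM under DMSO, 108, 113, 113 and 119 under torin1 and 112, 120.4, 122 and 125 under MK-8722. In DKO MEFs it was at 132, 136, 138 and 141 CPM under DMSO, 133, 135, 137 and 142 under torin1 and 125, 128, 137 and 141 under MK-8722. Both drug groups of WT MEFs lay above DMSO, and all DKO libraries but 1 lay above all WT libraries. With MK-8722 *Ctsz* rose in WT MEFs by 0.33 ± 0.046 (adjusted p = 7.44e-06), and with torin1 it differed by 0.25 ± 0.046 (adjusted p = 6.06e-05), just under the fold minimum. In DKO MEFs the 95% confidence interval of the log2 difference ran from -0.10 to 0.09 with torin1 and from -0.14 to 0.05 with MK-8722, neither called. The response to MK-8722 was lower in DKO by 0.38 ± 0.065 (adjusted p = 0.000446), and that to torin1 differed by -0.25 ± 0.065 (adjusted p = 0.0103, under the fold minimum). *Nelfcd* overlaps exons of *Ctsz* on the opposite strand and held 36.9% to 82.1% of the *Ctsz* count, and its mean count was lower in the drug groups than under DMSO in WT MEFs. Whether counting used strand is not given in the sources used here.

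**Figure D4:**
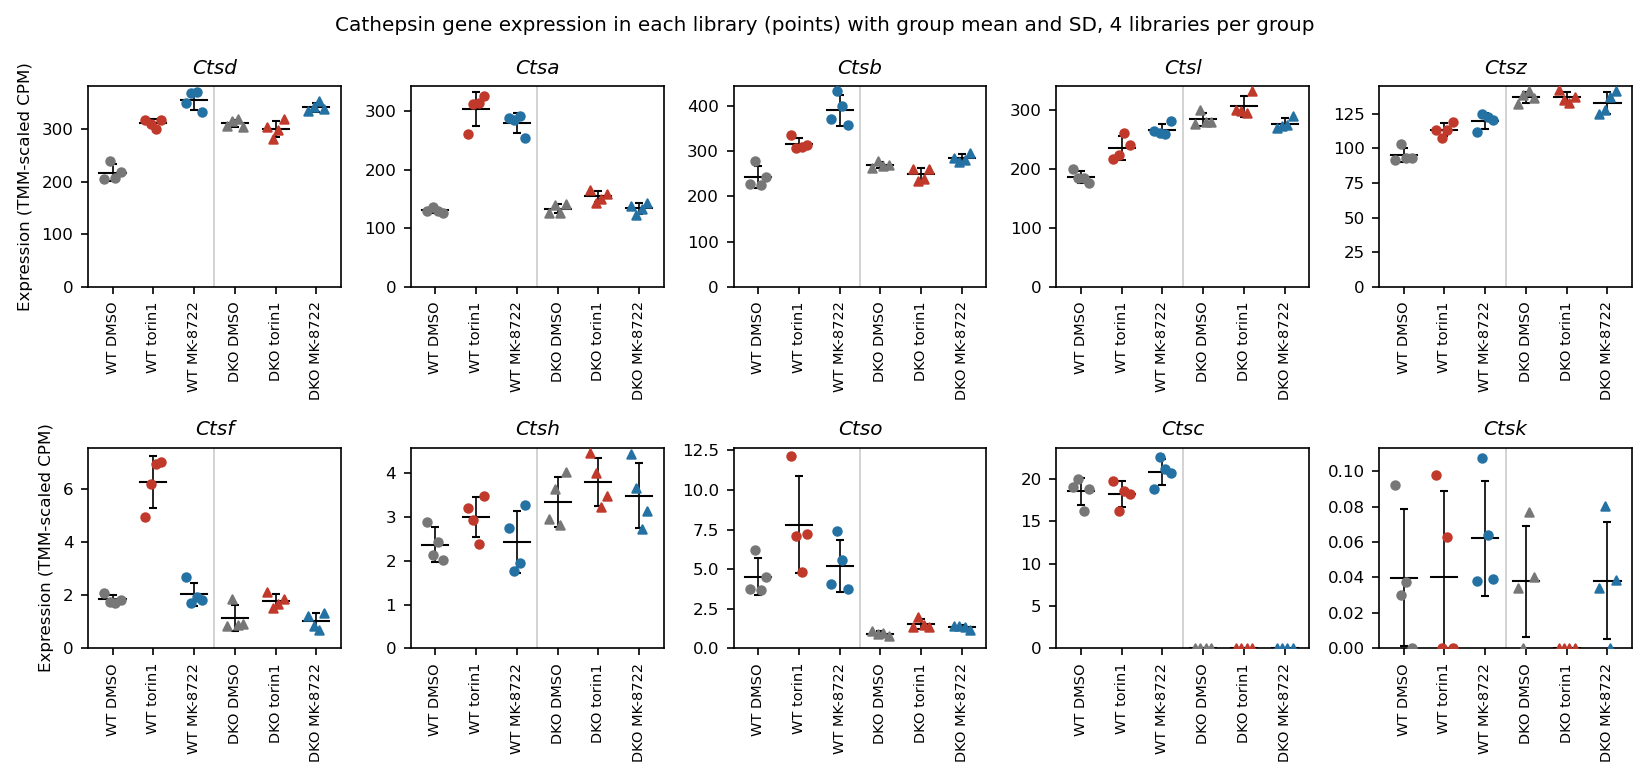
Expression of the 10 cathepsin genes in CPM in each library (circles WT, triangles DKO), with the group mean as a line and the SD as a bar, n = 4 per group. In WT MEFs the drug libraries of *Ctsd*, *Ctsa*, *Ctsb*, *Ctsl* and *Ctsz* stand above those of DMSO, *Ctsf* is high under torin1 in WT MEFs, and *Ctsc* is at 0 in the 12 DKO libraries.

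*Ctsf* encodes a cysteine endopeptidase with a long propeptide (chromosome 19, 4855130 to 4860918, plus strand, ENSMUSG00000083282) and responded to torin1 and not detectably to MK-8722. The WT libraries gave 1.72, 1.75, 1.84 and 2.09 CPM under DMSO, 4.93, 6.20, 6.93 and 7.02 under torin1 and 1.72, 1.83, 1.95 and 2.68 under MK-8722, from 46 to 221 counts per library. The DKO libraries gave 0.857, 0.883, 0.922 and 1.88 CPM under DMSO, 1.51, 1.69, 1.86 and 2.13 under torin1 and 0.700, 0.842, 1.24 and 1.35 under MK-8722, from 20 to 57 counts. The WT torin1 libraries stood above all others, and in DKO MEFs the passage 8 library under DMSO was inside the torin1 range. *Ctsf* rose with torin1 by 1.76 ± 0.201 in WT (adjusted p = 9.08e-08) and by 0.68 ± 0.237 in DKO MEFs (adjusted p = 0.018). With MK-8722 the difference was 0.14 (95% confidence interval -0.31 to 0.59) in WT and -0.12 (-0.65 to 0.41) in DKO MEFs. The torin1 response was lower in DKO by 1.08 ± 0.312 (adjusted p = 0.021), a call that did not hold without the 3 DKO libraries of passage 8 (-0.75, adjusted p = 0.088), without the DMSO library of that passage alone (-0.75, adjusted p = 0.0787) or with an offset for effective transcript length (-0.91, adjusted p = 0.122). The DKO rise itself was not called without DMSO replicate 1, 3 or 4 or torin1 replicate 1, at 0.57 to 0.59 on the log2 scale. Between the lines *Ctsf* was lower in DKO MEFs under each treatment, by 0.72 under DMSO, 1.80 under torin1 and 0.98 under MK-8722 on the log2 scale (adjusted p = 0.01, 5.46e-08 and 0.000892).

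*Ctso* encodes a little-studied cysteine cathepsin (chromosome 3, 81932601 to 81956725, plus strand, ENSMUSG00000028015). Among WT MEFs the values were 3.70, 3.72, 4.53 and 6.20 CPM under DMSO, 4.83, 7.12, 7.20 and 12.1 under torin1 and 3.78, 4.05, 5.60 and 7.38 under MK-8722. Among DKO MEFs the values were 0.762, 0.896, 0.998 and 1.10 CPM under DMSO, 1.36, 1.38, 1.47 and 1.98 under torin1 and 1.16, 1.33, 1.41 and 1.44 under MK-8722, from 19 to 54 counts. The passage 11 library was the highest of its group in all 3 WT groups, the WT groups overlapped, and every DKO library lay below every WT library. *Ctso* was lower in DKO by 2.27 ± 0.284 under DMSO, 2.33 ± 0.257 under torin1 and 1.96 ± 0.267 under MK-8722 (adjusted p = 3.05e-07, 3.77e-08 and 1.02e-06). With torin1 it rose by 0.78 ± 0.228 in WT MEFs (adjusted p = 0.00524), and the value was 0.71 ± 0.316 in DKO MEFs (adjusted p = 0.0587). Without the WT torin1 library of passage 11 the WT value was 0.46 (adjusted p = 0.0592), and without all 3 WT libraries of that passage it was 0.65 (adjusted p = 0.00232). With MK-8722 the difference was 0.20 ± 0.233 in WT (adjusted p = 0.582) and 0.50 ± 0.322 in DKO MEFs (adjusted p = 0.307), neither called, although the 4 DKO libraries under MK-8722 lay above those under DMSO. Both DKO differences were called with passage as a block within each line, with torin1 at 0.72 (adjusted p = 0.000771) and with MK-8722 at 0.51 (adjusted p = 0.0263). The torin1 response did not differ detectably between the lines, at -0.07 with a 95% confidence interval from -0.91 to 0.77.

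*Ctsk*, whose product is the collagen-degrading protease of osteoclasts, had 0 to 3 counts per library and was not tested (chromosome 3, 95499256 to 95509362, plus strand, ENSMUSG00000028111). Its 24 libraries gave no level above the floor of 3 counts, so no fold change is given.

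*Ctsh* encodes an aminopeptidase (chromosome 9, 90054152 to 90076089, plus strand, ENSMUSG00000032359). It ranged from 1.76 to 3.47 CPM in the 12 WT libraries and from 2.73 to 4.44 in the 12 DKO libraries, from 49 to 129 counts. It was called higher in DKO under DMSO by 0.50 ± 0.193 (adjusted p = 0.0297) and under MK-8722 by 0.53 ± 0.193 (adjusted p = 0.0215), with overlapping libraries. Neither call held without the WT libraries of passage 11 (0.41 and 0.38, adjusted p = 0.0835 and 0.105), and the DMSO call also failed without those of DKO passage 8 (0.46, adjusted p = 0.0772). Its drug differences were 0.34 and 0.03 in WT and 0.18 and 0.06 in DKO MEFs on the log2 scale, none called.

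*Ctsc* encodes dipeptidyl peptidase I, which activates serine proteases of immune cells (chromosome 7, 88278085 to 88310888, plus strand, ENSMUSG00000030560). In WT MEFs it was at 16.3, 18.9, 19.03 and 20.1 CPM under DMSO, 16.2, 18.3, 18.6 and 19.8 under torin1 and 18.8, 20.7, 21.2 and 22.6 under MK-8722. All 12 DKO libraries had 0 counts, against 436 to 666 counts in the WT libraries. Taking a floor of 3 counts per library, *Ctsc* was at least 145-fold lower in DKO under DMSO, at least 163-fold under torin1 and at least 173-fold under MK-8722. In WT MEFs it differed by -0.03 with torin1 (95% confidence interval -0.21 to 0.16) and 0.17 with MK-8722 (-0.02 to 0.35), neither called. The next protein-coding gene downstream, *Rab38*, had 20 to 85 counts in WT and 5 to 17 in DKO libraries, and *Vmn2r79*, farther upstream, had 4 to 13 in WT and 41 to 104 in DKO libraries. *Nox4* and *Tmem135*, also upstream and downstream, had at least 107 and 482 counts in every library. These neighbours were chosen after the values of *Ctsc* were seen.

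Under DMSO 4 of the 9 genes were higher in DKO than in WT MEFs, *Ctsd*, *Ctsl*, *Ctsz* and *Ctsh*, and 3 were lower, *Ctsc*, *Ctso* and *Ctsf*, while 23.5% of all genes were called higher and 24.6% lower. For *Ctsl* the difference was 0.61 ± 0.053 (adjusted p = 1.03e-09) and for *Ctsz* 0.52 ± 0.046 (adjusted p = 1.26e-09), and for both every DKO library was above every WT library. Under torin1 2 genes were higher, *Ctsl* by 0.38 and *Ctsz* by 0.27, and 5 were lower, with 24% of all genes called higher and 27.8% lower. Neither *Ctsl* nor *Ctsz* was called when libraries were scaled by their size alone, which shifted all genes by -0.13 on the log2 scale in this comparison. Under MK-8722 *Ctsh* was higher and 5 genes were lower, with 23.3% of all genes called higher and 25.4% lower. The genes lower under both drugs were *Ctsa*, *Ctsb*, *Ctsc*, *Ctsf* and *Ctso*. *Ctsa* was lower in DKO by 0.97 ± 0.065 under torin1 and 1.06 ± 0.066 under MK-8722, and *Ctsb* by 0.35 ± 0.061 and 0.46 ± 0.061.

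The drugs were also compared with each other. In WT MEFs torin1 gave higher values than MK-8722 for 2 of 9 genes, with 24.9% of all genes called higher, and a lower value for 1, with 20% of all genes called lower. *Ctsf* was higher by 1.62 ± 0.200 (adjusted p = 3.72e-07) and *Ctso* by 0.58 ± 0.228 (adjusted p = 0.0317), the latter with overlapping libraries and at 0.27 (adjusted p = 0.276) without the torin1 library of passage 11. *Ctsb* was lower under torin1 by 0.30 ± 0.061 (adjusted p = 0.000163). *Ctsa* differed by 0.12, with a 95% confidence interval from -0.02 to 0.25, and *Ctsd* and *Ctsl* by -0.19 and -0.18 (adjusted p = 0.00106 and 0.00565), under the fold minimum. In DKO MEFs 1 of 8 genes was higher under torin1, *Ctsf* by 0.80 ± 0.238 (adjusted p = 0.0066), with 21.1% of all genes called higher, and 0 were lower, with 19.3% of all genes called lower. DESeq2 and edgeR 4 also called 0 lower in DKO MEFs. By the edgeR test *Ctsb* and *Ctsd* were lower at -0.193 and -0.185 (adjusted p = 0.00962 and 0.00152), under the fold minimum. Also under the fold minimum, *Ctsa* and *Ctsl* were higher at 0.205 and 0.146 (adjusted p = 0.0102 and 0.0227).

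Drug and DMSO libraries of 1 line that share a passage number were compared as values with no test. In WT MEFs *Ctsa*, *Ctsb*, *Ctsd*, *Ctsl* and *Ctsz* were higher with both drugs at 4 of 4 passages. For *Ctsa* the differences were 0.94 to 1.33 on the log2 CPM scale with torin1 and 0.97 to 1.22 with MK-8722, and the lowest torin1 difference was at passage 11. In DKO MEFs *Ctsa* was higher with torin1 at 4 of 4 passages, by 0.18 to 0.26, and with MK-8722 at 2 of 4, by -0.05 to 0.07. *Ctsb* was lower with torin1 at 4 of 4 DKO passages, with differences of -0.17 to -0.05, and higher with MK-8722 at 4 of 4, by 0.07 to 0.09. *Ctsd* was higher with MK-8722 at 4 of 4 DKO passages, by 0.10 to 0.16. For *Ctsl* the DKO differences were 0.08 to 0.15 with torin1, higher at 4 of 4, and -0.05 to -0.02 with MK-8722, higher at 0 of 4. *Ctsc* was higher with MK-8722 at 4 of 4 WT passages, by 0.12 to 0.21. With torin1 *Ctsf* was higher at 4 of 4 WT passages, by 1.49 to 2.02, and at 3 of 4 DKO passages, by -0.02 to 1.19. *Ctso* was higher with torin1 at 4 of 4 passages of each line, by 0.37 to 0.96 in WT and 0.55 to 0.85 in DKO MEFs. With MK-8722 it was likewise higher at 4 of 4 passages of each line, by 0.02 to 0.30 in WT and 0.36 to 0.87 in DKO MEFs.

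**Figure D5:**
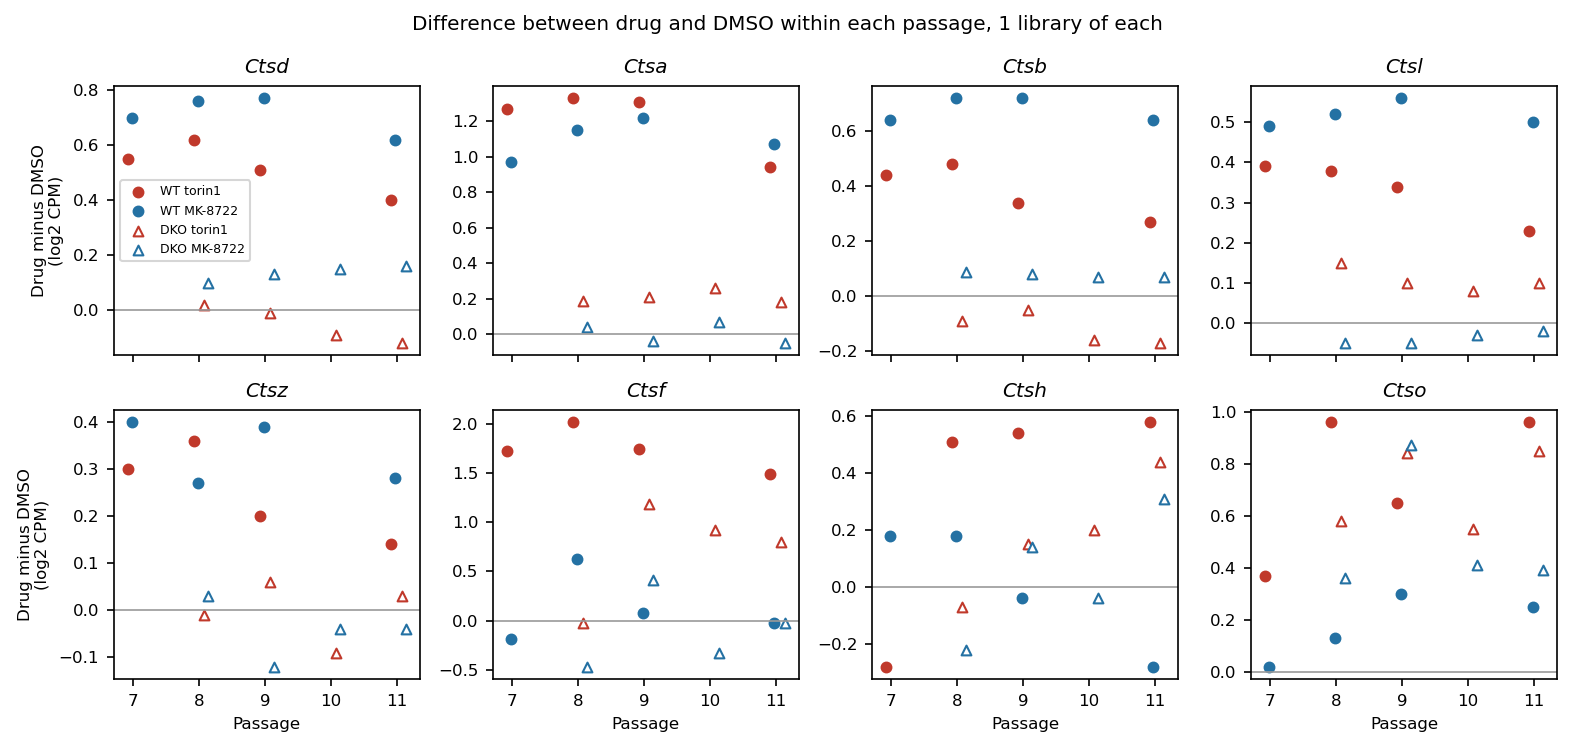
Difference in log2 CPM between the drug library and the DMSO library of the same passage for 8 cathepsin genes, with passage on the x axis, WT as filled circles and DKO as open triangles, torin1 in red and MK-8722 in blue. For *Ctsa* all WT differences are at least 0.94 and all DKO differences at most 0.26.

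Shares of annotated transcripts in the TPM of their gene are given as values with no test. *Ctsz* and *Ctsk* have 1 transcript in the deposited table. The *Ctsb* transcript leading by TPM, ENSMUST00000225540, took 61.0% ± 1.72 of the gene's TPM in WT MEFs under DMSO and 60.6% ± 1.58 under torin1 (n = 4). By reads it did not lead, with a mean of 1367 under DMSO against 6086 for ENSMUST00000006235, since TPM divides by length. The TPM level of *Ctsb* compared with other genes thus rests largely on the transcript with fewer reads. For *Ctsd* the leading transcript took 64.3% ± 1.79 and 60.7% ± 3.29, and for *Ctsa* 46.8% ± 2.27 and 43.1% ± 1.93, differences that were not tested. In WT MEFs 2 minor *Ctsa* transcripts took larger shares under torin1. ENSMUST00000140213 had 2.43% ± 0.455 under DMSO and 5.31% ± 1.32 under torin1, and ENSMUST00000128596 had 1.80% ± 0.958 and 3.89% ± 0.708. In neither did the libraries of the 2 groups overlap. The share of the latter was 4.35% ± 0.544 in DKO MEFs under DMSO. Both transcripts were picked after their values were seen. Salmon's split between transcripts is an estimate, and shares of *Ctsf* and *Ctsh* varied by up to 27.7 and 25.8 percentage points (SD) within a group.

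Among the other cathepsin genes, 1 of 13 passed the filter. This was *Ctsw*, known from cytotoxic lymphocytes, at 5.33 ± 0.857 CPM in WT and 6.74 ± 1.11 in DKO MEFs under DMSO, and it rose with torin1 by 0.49 in WT (adjusted p = 0.0137) and by 0.79 in DKO MEFs (adjusted p = 0.000225). Of 14 genes of cystatins and stefins, the protein inhibitors of cysteine cathepsins, 3 passed the filter. *Cstb*, a cytosolic inhibitor, rose in WT MEFs by 0.44 with torin1 and 0.49 with MK-8722, with a lower response in DKO MEFs for both drugs (-0.48 and -0.56, adjusted p = 0.000105 and 2.33e-05). *Cst6* was at 1.01 ± 0.269 CPM in WT and 1.60 ± 0.288 in DKO MEFs under DMSO (log2 fold change 0.66, adjusted p = 0.0382) and was not called with either drug. *Cst3*, a secreted inhibitor, was at 93.3 ± 11.5 CPM in WT and 335 ± 42.5 in DKO MEFs under DMSO (log2 fold change 1.84, adjusted p = 1.54e-13) and was not called with either drug.

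Of 7 other lysosomal proteases 6 passed the filter, and 3 of these, *Tpp1*, *Dpp7* and *Scpep1*, rose with each drug in WT MEFs, where 26.6% of all genes were called higher with torin1 and 10.3% with MK-8722. *Dpp7*, a dipeptidyl peptidase, rose from 19.99 ± 1.37 CPM to 87.7 ± 8.71 with torin1 and 66.3 ± 4.45 with MK-8722, and *Tpp1*, a tripeptidyl peptidase, from 52.3 ± 2.43 to 144 ± 13.1 and 119 ± 5.56. The torin1 response was lower in DKO for 4 of the 6 and the MK-8722 response for 3, with 6.33% and 4.08% of all genes called lower. The asparaginyl endopeptidase gene *Lgmn* was at 78.5 ± 7.64 CPM in WT MEFs under DMSO and was not called with either drug, with a torin1 response lower in DKO by 0.32 (adjusted p = 0.0219). *Prcp* and *Cpq* were not called with either drug in either line, and *Cpq* was at 13.7 ± 2.22 CPM in WT and 0.0535 ± 0.0811 in DKO MEFs under DMSO. Of the partners of CTSA, *Neu1* rose by 0.55 with torin1 and 1.97 with MK-8722 in WT MEFs, and in DKO MEFs it fell by 0.85 with torin1 and rose by 0.48 with MK-8722 (adjusted p = 2.35e-10 and 1.75e-05). *Glb1* rose by 0.34 with torin1 in WT MEFs, and *Psap*, which encodes the substrate prosaposin, rose there by 0.36 and 0.35 with torin1 and MK-8722. In DKO MEFs the means were also higher with these drugs, without a call. *Glb1* was at 35.1 ± 1.58 CPM there under DMSO and 41.7 ± 0.799 under torin1. *Psap* was at 788 ± 16.7 CPM under DMSO, 869 ± 30.4 under torin1 and 850 ± 12.2 under MK-8722.

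Across the 24 libraries, the genes whose log2 CPM followed each cathepsin most closely were named by Pearson's r, as a description over libraries that share 2 lines and 3 treatments. *Ctsa* ran closest to *Washc5* (r = 0.99), *Ctsb* to *Scpep1* (0.948), *Ctsd* to *Rnh1* (0.959), *Ctsl* to *Spg21* (0.94), *Ctsz* to *Lamp2* (0.958), *Ctsf* to *Metap1d* (0.953), *Ctso* to *Car13* (0.981) and *Ctsh* to *Celsr2* (0.852). *Ctsc* was matched by *Slc16a13* at r = 1, a value set by the difference between the lines. Among the cathepsins themselves *Ctsl* and *Ctsz* had r = 0.914, and *Ctsa* had 0.784 with *Ctsb* and -0.001 with *Ctsl*.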

How the data were processed

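RNA from 24 cultures was sequenced as polyA-selected, paired-end libraries. The authors aligned reads to GRCm38 with STAR and quantified them with Salmon in nf-core/rnaseq, using molecular identifiers. The deposited gene table holds estimated counts, which were rounded here, and the deposited TPM values were made by the authors with Salmon and served for levels between genes. No column was left without a sample (0 columns).

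Genes were filtered with filterByExpr (minimum count 10) and tested in R 4.3.3 with edgeR 4.0.16, in its quasi-likelihood form of edgeR 3, with TMM scaling, 1 mean per group over all 24 libraries and Benjamini-Hochberg adjustment over 15401 genes. TMM factors ran from 0.950 to 1.08, the biological coefficient of variation was 10.7% and 18 residual degrees of freedom remained. SE is the log2 fold change divided by the square root of F. Totals of 24668870 to 33332507 counts put the floor of 3 counts between 0.0903 and 0.128 CPM, and intervals and floors cover the spread or the counting error only. The study's methods mention removal of a batch effect without naming the batch, and the labels give a single batch, so none was fitted. The RNA integrity number was 7.9 for the DKO library of replicate 3 under MK-8722 (passage 10) and 9.7 to 9.9 for all others. Replicate pairs differed beyond sampling noise (chi-square per degree of freedom 3.98 to 40.9 over 36 pairs). Scripts were tested on simulated data.

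The members and lists were chosen with earlier results of these data known. All members are named, with the other genes of the fixed lists where described and the gene nearest to each member by Pearson's r. Alternatives were DESeq2 1.42.0, other scalings, filters and thresholds, a length offset, replicate and passage blocks and leaving out libraries.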

Additional observations from a re-analysis of the deposited data

Results flagged for a closer look

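Of 56 groups of 4 libraries checked, 5 held a library whose gap to the nearest other, divided by the range of the group, was above Dixon's 95% critical value, and chance alone gives such a gap in about 1 in 20 groups. *Ctsa* in WT MEFs under MK-8722 was at 255 CPM in the passage 7 library and 286 to 292 in the others (ratio 0.837). *Ctsf* in DKO MEFs under DMSO was at 1.88 CPM, from 44 counts, in the passage 8 library and 0.857 to 0.922 in the others (0.936). *Ctsl* in DKO MEFs was at 299.7 CPM under DMSO (others 277 to 280.1, ratio 0.849) and at 333 under torin1 (others 295 to 299, ratio 0.88), both in passage 8 libraries. *Ctsz* in WT MEFs under DMSO was at 103 CPM in the passage 11 library and 91.6 to 93.3 in the others (0.848).

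By the test of the difference between lines in edgeR, 9 responses were lower in DKO than in WT MEFs. For torin1 these were *Ctsa* (-1.01 on the log2 scale), *Ctsb* (-0.49), *Ctsd* (-0.57) and *Ctsf* (-1.08). For MK-8722 they were *Ctsa* (-1.10), *Ctsb* (-0.60), *Ctsd* (-0.57), *Ctsl* (-0.56) and *Ctsz* (-0.38). Their adjusted p-values ran from 2.06e-08 for *Ctsa* with MK-8722 to 0.021 for *Ctsf* with torin1. The *Ctsf* call did not hold without the DKO libraries of passage 8 (adjusted p = 0.088) or with the length offset (adjusted p = 0.122).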

How the results depend on the processing

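Over 94 gene and comparison pairs, 2112 values were recomputed, of which 2038 kept their call or stayed without one, 44 lost the call and 30 gained it. Of the values called in either fit, 0 reversed their sign. Values called in neither fit could change sign and still count as kept, such as *Ctsh* with MK-8722 in WT MEFs (-0.157 to 0.148). Leaving out the 3 WT libraries of passage 11 or the 3 DKO libraries of passage 8, and a passage block common to both lines, were chosen after seeing the data. For torin1 in DKO MEFs the count of 1 gene higher became 2 with the adjusted p alone (*Ctsa* gained), with library size alone, DESeq2 or either passage block (*Ctso* gained), and 0 with glmTreat against the fold minimum. For MK-8722 in DKO MEFs 0 higher became 1 with the adjusted p alone (*Ctsd*, adjusted p = 0.0394) and 1 with either passage block (*Ctso*). For DKO against WT under torin1, 2 higher became 0 with library size alone, 1 with at least 10 counts in every library and 1 with glmTreat. Under MK-8722, 1 higher became 2 with the adjusted p alone, 0 with glmTreat and 0 without WT passage 11. The torin1 response lower in 4 genes became 2 with glmTreat. Smaller changes in a count are not all listed here. For that response *Ctsl* and *Ctsz* were gained with library size alone and with the adjusted p alone. *Ctsf* was lost from it with the length offset. With glmTreat the *Ctsz* rise with MK-8722 in WT MEFs (adjusted p = 0.222) and its lower MK-8722 response in DKO MEFs (0.367) lost their calls. So did the *Ctsl* rise with torin1 in WT MEFs (0.0715). For torin1 against MK-8722 in WT MEFs, 2 higher became 1 with glmTreat, and 1 lower became 0 with library size alone, 3 with the adjusted p alone and 0 with glmTreat. In DKO MEFs 1 higher became 3 and 0 lower became 2 with the adjusted p alone. Fewer or more genes pass by construction where the threshold changed, and otherwise the cause was not tested.

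Leaving out 1 library at a time gave 0 to 1 higher for torin1 in DKO MEFs, 1 to 2 higher for DKO against WT under torin1, 0 to 1 higher under MK-8722, and 1 to 2 higher and 0 to 1 lower for torin1 against MK-8722 in WT MEFs. It gave 5 to 7 higher for torin1 and 5 to 5 for MK-8722 in WT MEFs, and 3 to 5 and 5 to 5 lower responses. *Ctsb* for torin1 against MK-8722 in WT MEFs was -0.26, under the fold minimum, without MK-8722 replicate 2, and *Ctsz* for DKO against WT under torin1 was 0.25 without WT torin1 replicate 2 and 0.26 without DKO torin1 replicate 1. Scaling by library size alone moved the share of calls that were higher, over all genes, from 56.5% to 68.2% for torin1 in WT MEFs, from 46.3% to 31.9% for DKO against WT under torin1, from 42.5% to 26.5% for the torin1 response and from 55.4% to 66.3% for torin1 against MK-8722 in WT MEFs.

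With the replicate number as a block (replicate block), 2 genes were higher with torin1 in DKO MEFs, *Ctso* being gained (adjusted p = 0.0476), and no other call changed. Same-numbered libraries had correlations of their deviations down to -0.363, and libraries of the same passage down to 0.015 in WT and 0.024 in DKO MEFs, so neither was taken to pair the samples, since not every pair was over 0.1. All same-passage correlations were above 0, with means of 0.216 to 0.288 in WT and 0.078 to 0.093 in DKO MEFs. Means between passages were -0.092 to -0.069 and -0.031 to -0.026. These largely follow by construction, since deviations were taken from group means, and are no separate comparison. A block within each line gives no value for DKO against WT. With the passage block common to both lines, 90 of 94 values kept their call or stayed without one. *Ctso* in DKO MEFs was gained with torin1 (0.72, adjusted p = 0.000608) and MK-8722 (0.52, adjusted p = 0.0234), and under torin1 *Ctsh* was gained for DKO against WT (0.47, adjusted p = 0.0268) while *Ctsz* was lost at 0.26, under the fold minimum.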
